A study of Mus musculus with 15 samples.

Results

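The transcriptomes of whole testes were compared between TSA-treated and Control mice. The comparison used 6 of the 15 libraries of the series, TSA1, TSA2 and TSA3 against Control1, Control2 and Control3, chosen by their titles. It covered the 17896 genes, of 36118 listed, whose mean over all 15 libraries was at least 10. All animals were C57/BL6, and the sampled tissue was the testis in every case. The TSA group carried the treatment labelled TSA and the Control group the treatment labelled Control. The labels do not spell out TSA and give no dose, age, route or duration. The series concerns histone modifications and chromosome organisation in the prophase of meiosis, and its other treatments, MTX, HMS-I1 and AA, with 3 libraries each, entered the statistical model only to estimate the spread. Whether the replicates came from separate animals is not stated, so p-values measure only how far these libraries scatter, and that scatter may be technical.

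A testis holds germ cells at every step of sperm formation beside the somatic cells that support them. Spermatogonia divide and enter meiosis as spermatocytes, which pair and recombine their chromosomes. Haploid round spermatids then build an acrosome, a vesicle of enzymes for entering the egg, and a tail, while their histones are replaced first by transition proteins and then by protamines. Acetylation of histones, set by acetyltransferases and removed by deacetylases, is a known step of that replacement and of gene control in germ cells. Sertoli cells nurse the germ cells inside the tubules, and Leydig cells between the tubules make testosterone.

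The deposited values were normalised counts, and those of a library summed to between 27491376 and 40648028 over the series. The sequencing depth is unknown. The libraries of each group were of different kinds. TSA1, together with Control1 and Control2, belonged to 6 libraries with high values of the 60 replication-dependent histone genes (a mean log2 value of 8.62 in TSA1 and of 8.82 and 8.68 in these Control libraries). TSA2, TSA3 and Control3 belonged to 9 libraries with low histone values (2.95, 3.51 and 3.33) and much mitochondrial RNA. The 13 mitochondrially encoded genes made up 10.4% and 4.52% of the total in TSA2 and TSA3 and 8.06% in Control3, against 1.39% in TSA1 and 1.11% and 1.40% in Control1 and Control2. These sets, called histone-rich and mitochondria-rich below, were drawn from the same values, and no test of their difference is given. A TSA group with 1 histone-rich library was thus set against a Control group with 2. Values of both kinds of comparison are given below, over all 6 libraries and within each set. Across the tested genes, the log2 values of TSA1 correlated at 0.965 and 0.970 with Control1 and Control2, but at 0.829 and 0.871 with TSA2 and TSA3. TSA2 and TSA3 correlated at 0.946 and 0.934 with Control3. The tissue was testis by its markers: the germ cell genes Ddx4 and Dazl and the protamine gene Prm1 were high in every library, whereas the epididymal markers Defb1, Crisp1, Lcn5 and Adam28 did not exceed 6.42 normalised counts in any of the 6.

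No gene passed the test between TSA and Control over all 6 libraries. In limma with the means of the 5 groups, 0 of 17896 genes (0%) passed an adjusted p of 0.05, and the smallest adjusted p was 0.848. At an unadjusted p below 0.05 there were 1027 genes, of which 954 were lower and 73 higher in TSA, where chance alone would give 894.8. With the library set as a term in the model the count was again 0 (0%), with 1351 genes at an unadjusted p below 0.05. A fit of these 6 libraries alone called 1 gene, Gm20908, a predicted gene on chromosome Y listed at 0 in all 3 TSA libraries and at 173, 209 and 129 normalised counts in Control1, Control2 and Control3 (limma adjusted p = 0.0325). All 3 TSA libraries lay above all 3 Control libraries in 422 genes (2.36%) and below them in 391 (2.18%). Both shares lie below the 5% that chance alone would give in each direction, so a lack of overlap named below only describes the values.

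Tmem86b, which encodes a lysoplasmalogenase, had the smallest p of all genes with a proper symbol and a mean of at least 50. In every sentence of values, TSA libraries are given in the order TSA1, TSA2, TSA3, and Control libraries in the order Control1, Control2, Control3. Tmem86b stood at 85.0, 43.4 and 41.3 normalised counts in TSA, against 149, 150.1 and 147 in Control. All 3 TSA libraries lay below the Control libraries, whose spread was narrow, with TSA1 the highest of the TSA group. The difference was -1.46 on the log2 scale (SE 0.32) and did not pass the test (limma adjusted p = 0.848). Adora3, an adenosine receptor gene, stood at 126, 27.6 and 43.9 normalised counts in TSA, against 191, 167 and 220.0 in Control. The RNA-binding protein gene Rbms1 stood at 2378, 546 and 728 in TSA, against 2568, 2541 and 3996 in Control. In both genes all 3 TSA libraries lay below the Control libraries, and TSA1 lay much nearer to them than TSA2 and TSA3. Vwa5b1 (-2.01, SE 0.52), the metalloprotease gene Adamts20 (-2.19, SE 0.58) and the claudin-like X-linked gene Cldn34c1 (-1.94, SE 0.50) completed the 6 lower genes taken by the fixed rule. None of the 6 passed the test (limma adjusted p = 0.848 for each).

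The 6 genes at the other end were higher in TSA, and none passed the test either (limma adjusted p = 0.848 for each). Stard5, a gene for a lipid transfer protein, stood at 233, 226 and 336 normalised counts in TSA, against 129, 135 and 126 in Control. Here the groups did not overlap, and the lowest TSA library lay well above the highest Control library. Ptpro, a receptor tyrosine phosphatase gene, stood at 78.0, 109 and 68.2 in TSA, against 33.7, 50.2 and 28.6 in Control. The chemokine gene Ccl21b was listed at 26.6, 124 and 97.7 in TSA and at 0 in all 3 Control libraries. It lies in a family of near-identical copies, which makes its counts uncertain, and it reached 112 normalised counts among the other mitochondria-rich libraries. Cyp2d22 (0.91, SE 0.32), the tight junction gene Cldn12 (0.59, SE 0.21) and Klhl18 (0.91, SE 0.33) were the remaining 3.

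**Figure D1:**
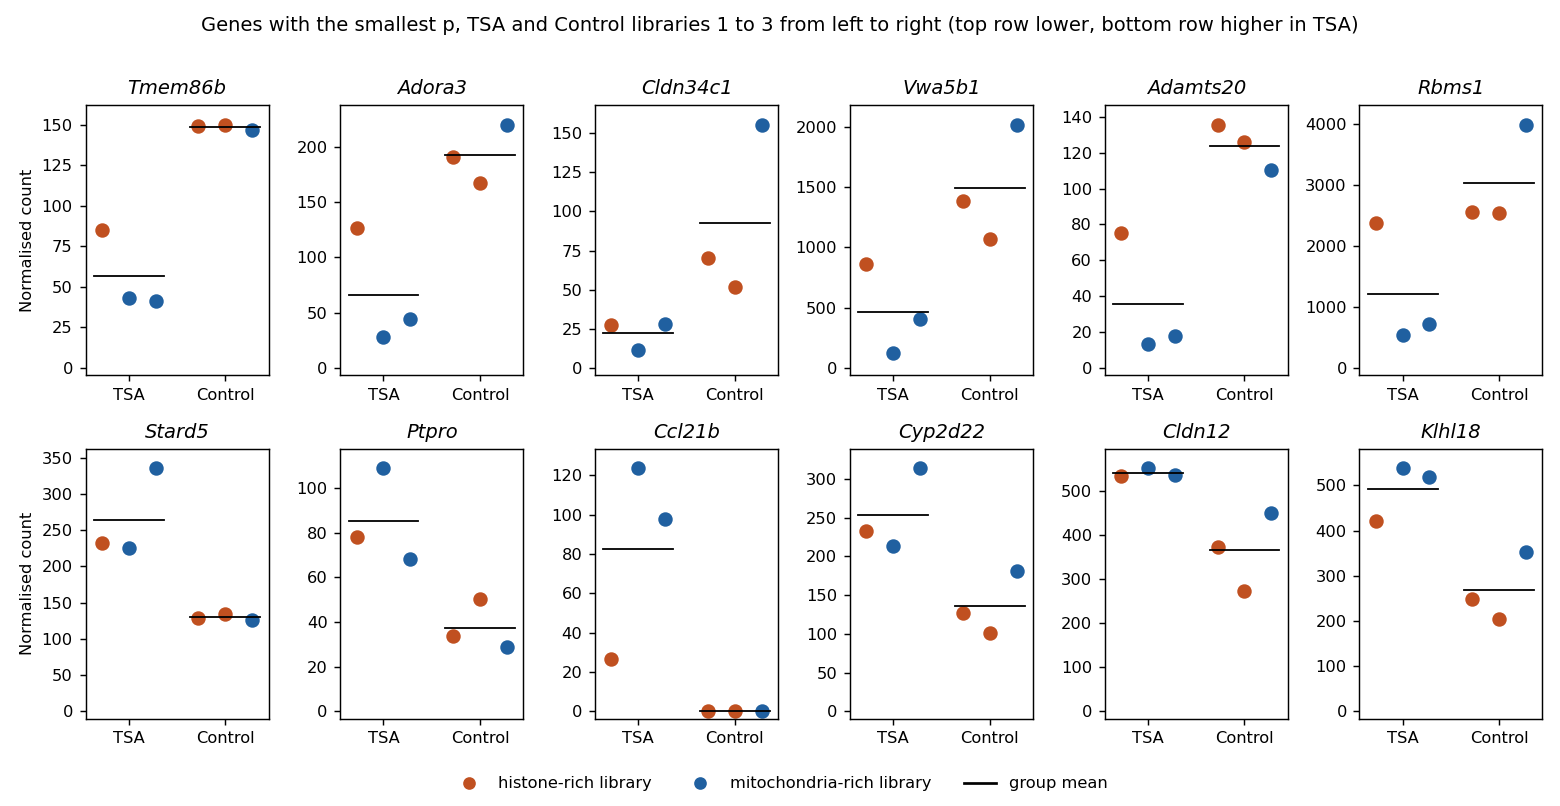
Normalised counts of the 12 genes with the smallest p in each TSA and Control library (linear axis from 0). Points are libraries 1 to 3 of each group from left to right, coloured by library set, and black lines are group means. The groups do not overlap in any of the 12 genes, and in the top row TSA1 is the highest TSA library, except in Cldn34c1, where TSA1 and TSA3 are level.

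Within the library sets the treated libraries differed from Control in unlike ways. TSA1 minus the mean of Control1 and Control2 was at least 1 on the log2 scale in 410 genes (2.29%) and at most -1 in 758 (4.24%). The mean of TSA2 and TSA3 minus Control3 was at least 1 in 359 genes (2.01%) and at most -1 in 2385 (13.3%). For TSA2 alone these counts were 434 and 2389, and for TSA3 alone 1175 and 2920. The median difference was 0.01 in both sets, and the interquartile range was 0.316 in the histone-rich and 0.809 in the mitochondria-rich set. After quantile normalisation the counts were 528 higher and 588 lower for TSA1 and 807 higher and 1840 lower for TSA2 and TSA3, and the median over all genes was 0.02 for TSA1 and 0.16 for TSA2 and TSA3. Of the 2385 genes that were lower in TSA2 and TSA3, 2169 (90.9%) lay within 1 of Control1 and Control2 in TSA1, 115 were also lower there by at least 1 and 101 were higher. The 2 differences share no library, and across genes they correlated at -0.04 (Pearson) and -0.05 (Spearman), a description over 17896 genes that are not independent. Their signs were the same in 48.0% of genes. Single libraries also differ within a group: Control1 and Control2 lay at least 1 apart in 1317 genes, and TSA2 and TSA3 in 3601. Each of TSA2 and TSA3 was lower than Control3 by at least 1 in 1502 genes, and each was higher in 123.

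**Figure D2:**
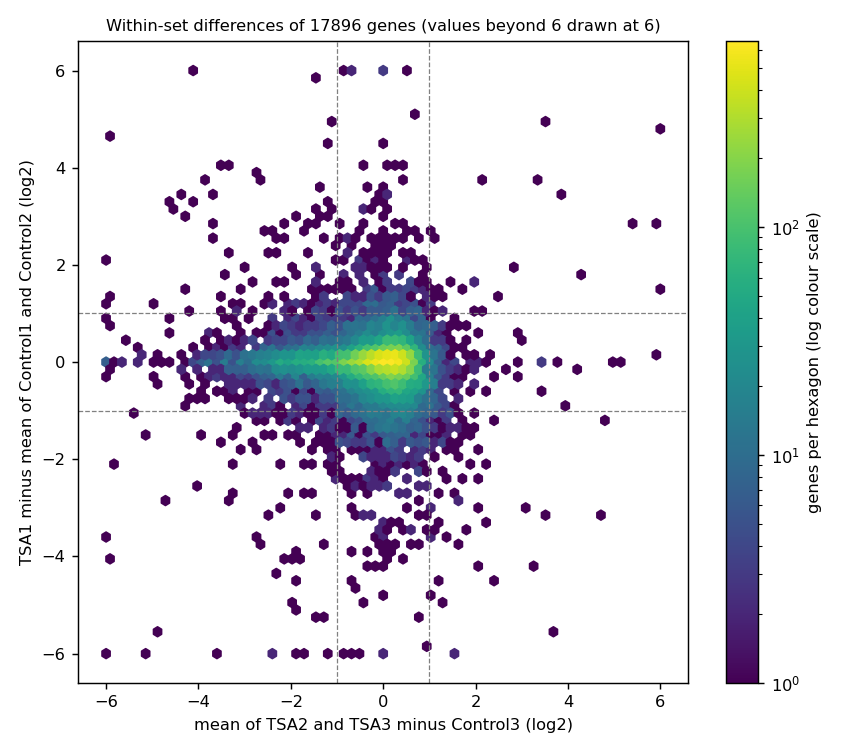
The difference of TSA from Control in log2(normalised count + 1) within the mitochondria-rich libraries (horizontal axis) and within the histone-rich libraries (vertical axis), for 17896 genes. Colour gives the number of genes per hexagon on a log scale, and dashed lines mark differences of 1 and -1, and values beyond 6 are drawn at 6. A tail of genes extends to the left at about 0 on the vertical axis, the 2169 genes that were lower in TSA2 and TSA3 and within 1 of Control in TSA1.

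Many genes passed a test when TSA1 was left out, and only then. Leaving out TSA2, TSA3, Control2 or Control3 instead called 0 genes, and leaving out Control1 called 1. The adjusted p-values of the fit without TSA1 do not allow for this choice of the library left out. In that fit of limma, TSA2 and TSA3 against the 3 Control libraries, 992 genes passed an adjusted p of 0.05, of which 991 (5.54%) were lower and 1 (0.00559%), Rdh16f1, was higher. This fit sets 2 mitochondria-rich libraries against 1 mitochondria-rich and 2 histone-rich ones. Of the 991, 949 were lower than Control3 by at least 1, and 976 lay within 1 of Control1 and Control2 in TSA1. TSA2 and TSA3 both lay below the other 7 mitochondria-rich libraries, of every treatment and of Control, in 979 of the 991. These libraries entered the fit that made the calls, and 0 genes passed with TSA1 in it. The counts among the 991 thus partly restate the selection and are no separate evidence. Over all tested genes, both lay below those 7 libraries in 2161 (12.1%) and above them in 641 (3.58%). With the library set as a term as well, an alternative chosen after seeing the data, 1009 genes passed, 1007 of them lower (5.63%) and 2 higher (0.0112%). After quantile normalisation, also tried later, 699 genes passed as lower, all among the 991, and 2 as higher. All 6 of the lower genes named above, from Tmem86b to Cldn34c1, were among those called without TSA1. Below, "fell without TSA1" means that a gene passed in the fit that left TSA1 out and was lower in TSA2 and TSA3, and counts of members are set beside the share of 5.54% over all genes. For genes so called, low values in TSA2 and TSA3 and a TSA1 value near Control follow in part from the selection. In a whole testis, fewer cells of a type and less RNA per cell cannot be told apart.

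Among the gene lists with at least 7 members tested, that of the acrosome had the lowest median in TSA2 and TSA3. Of 22 members, 8 fell without TSA1 (5.54% of all genes did) and 11 were lower than Control3 by at least 1 (13.3% of all genes were). The median difference within the mitochondria-rich set was -1.04, beside 0.01 over all genes. Within the histone-rich set the median was 0.06, 18 of the 22 members were higher in TSA1 than in Control (51.1% of all genes were), and no member differed by 1. The mean log2 level of the list was 12.1, 10.2 and 10.8 in TSA, against 11.9, 12.1 and 11.8 in Control, and lay between 11.4 and 11.8 in replicates 2 and 3 of the other treatments. TSA2 and TSA3 were the lowest of the 9 mitochondria-rich libraries in this list. The direction held with either of them alone, at -1.42 for TSA2 and -0.64 for TSA3. TSA2 and TSA3 also had the lowest mean log2 levels of the 9 over all tested genes, at 8.27 and 8.30. Control3 stood at 8.47 there, and replicates 2 and 3 of the other treatments at 8.38 to 8.49.

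Acrv1 (ENSMUSG00000032110, chromosome 9), the gene of an acrosomal matrix protein that appears in round spermatids, stood at 5956, 1019 and 2226 normalised counts in TSA, against 4653, 7044 and 8276 in Control. TSA2 and TSA3 lay far below all other libraries of both groups, while TSA1 lay among the Control libraries. The difference without TSA1 was -2.10 on the log2 scale (SE 0.35, limma adjusted p = 0.00544), and over all 6 libraries it was -1.44 (SE 0.47, limma adjusted p = 0.848). Spaca7, which encodes another acrosomal protein, stood at 4709, 706 and 879 in TSA, against 4028, 5866 and 3997 in Control. Its difference without TSA1 was -2.53 (SE 0.36, limma adjusted p = 0.00418). The remaining genes of the 8 were chosen after their values were seen. Izumo1, whose protein binds the egg membrane at fertilisation, stood at 3104, 329.7 and 884 in TSA, against 2357, 3475 and 3306 in Control. The hyaluronidase genes of sperm, Spam1 and Hyal5, are neighbours on chromosome 6 and showed the same order of libraries. Spam1 stood at 4113, 901 and 918 in TSA, against 3790.5, 4229 and 3783 in Control. Hyal5 stood at 5426, 409 and 712 in TSA, against 4357, 5933 and 4094 in Control, and its difference without TSA1, -3.13 (SE 0.37), was the largest of these 8. Spaca1, Zp3r and Tmem190 differed by -1.96, -1.79 and -3.05 without TSA1.

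Not every acrosome gene was much lower. Acrbp, which binds proacrosin, stood at 7868, 7381 and 8129.8 normalised counts in TSA, against 7355, 9175 and 12078 in Control, and TSA2 and TSA3 lay within the range of Control. The same held for the gene of the acrosomal protease acrosin, Acr, at 2881, 3204 and 3389 in TSA and 2658, 2619 and 5064 in Control, named after its values were seen. Zpbp2, Dpy19l2 and Spata16, which act in shaping the acrosome, differed from Control3 by -0.17, -0.41 and -0.10 in the mean of TSA2 and TSA3. They were likewise named after their values were seen. Spaca3, Spaca4 and Sppl2c were lower than Control3 by at least 1 (-1.75, -1.95 and -1.27) but did not pass without TSA1, and are also named after their values were seen.

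**Figure D3:**
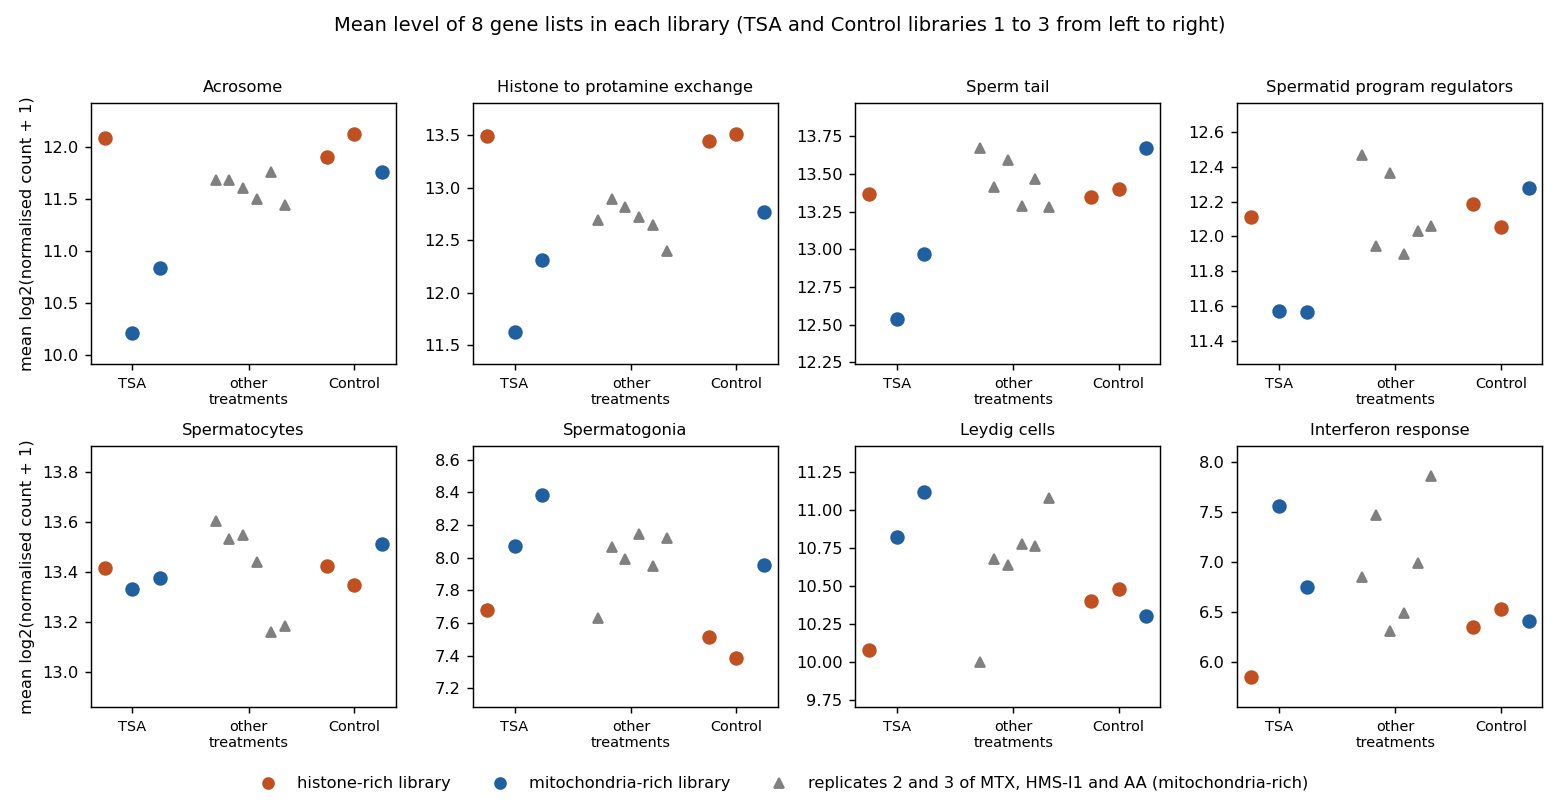
Mean log2(normalised count + 1) over the members of 8 gene lists in each TSA library, in replicates 2 and 3 of MTX, HMS-I1 and AA, and in each Control library. Each panel has its own axis, which does not start at 0. For the acrosome, histone to protamine exchange, sperm tail and spermatid program regulator lists TSA2 and TSA3 lie below all other libraries, whereas TSA1 lies near Control1 and Control2. Over all tested genes (not drawn) TSA2 and TSA3 also have the lowest means, at 8.27 and 8.30, beside 8.47 in Control3.

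The promoters of 4 of the 8 acrosome genes that fell are shown because they hold, in the 250 bases before the start of the gene, TGACGT or TGATGTCA. TGACGT is the core of the cyclic AMP response element, which the CREB family of transcription factors is known to bind, and TGATGTCA is a near match of that element. CREM, a member of the family, is a known activator of spermatid genes. The sequences are those of RefSeq on GRCm38.p6, in the direction of transcription. Capitals mark TGACGT and TGATGTCA, searched on both strands. Where both strands match at overlapping places, the capitals run over the union.
Izumo1, chr7:45621561-45621810, plus strand: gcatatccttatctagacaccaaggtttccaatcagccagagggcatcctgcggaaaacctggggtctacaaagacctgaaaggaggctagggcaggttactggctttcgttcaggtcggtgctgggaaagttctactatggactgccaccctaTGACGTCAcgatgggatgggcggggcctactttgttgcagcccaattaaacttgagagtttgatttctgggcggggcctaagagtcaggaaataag
Spam1, chr6:24790938-24791187, plus strand: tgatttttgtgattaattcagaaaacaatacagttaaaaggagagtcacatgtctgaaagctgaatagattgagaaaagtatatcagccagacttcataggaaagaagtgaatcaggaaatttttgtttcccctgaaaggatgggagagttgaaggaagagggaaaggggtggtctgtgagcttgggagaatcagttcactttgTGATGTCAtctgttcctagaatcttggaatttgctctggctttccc
Hyal5, chr6:24857747-24857996, plus strand: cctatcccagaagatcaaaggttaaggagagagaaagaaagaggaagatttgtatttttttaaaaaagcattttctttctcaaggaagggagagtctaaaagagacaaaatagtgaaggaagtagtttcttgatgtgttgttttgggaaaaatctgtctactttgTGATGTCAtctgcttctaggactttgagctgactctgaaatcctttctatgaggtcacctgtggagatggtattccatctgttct
Spaca7, chr8:12572786-12573035, plus strand: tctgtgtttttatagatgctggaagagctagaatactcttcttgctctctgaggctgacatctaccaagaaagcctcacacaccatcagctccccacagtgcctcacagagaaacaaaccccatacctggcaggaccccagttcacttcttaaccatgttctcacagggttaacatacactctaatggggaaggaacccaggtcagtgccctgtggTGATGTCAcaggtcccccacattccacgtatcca

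TGACGT was found in 2 of the 19 acrosome members with a promoter in the table (10.5%) and in 1773 of all 27025 promoters (6.56%). TGATGTCA, whose letters were picked after these sequences were seen, was found in 3 of the 19 (15.8%), all 3 among the 8 genes that fell without TSA1, and in 815 of all promoters (3.02%). Spam1 and Hyal5 share an unbroken stretch of 18 bases around it, actttgTGATGTCAtctg. These matches describe the letters only. Crem itself did not pass in any fit, with 7633, 5235 and 4472 normalised counts in TSA, against 7039, 8145 and 8759 in Control, where TSA2 and TSA3 were lower than every Control library and TSA1 was not.

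Genes of the sperm tail shared the pattern in part. Of 30 members, 5 fell without TSA1 and 10 were lower than Control3 by at least 1, beside 5.54% and 13.3% of all genes. The median within the mitochondria-rich set was -0.70. Within the histone-rich set the median was 0.02 and no member differed by 1. After quantile normalisation 4 of the 30 fell without TSA1. Akap3 (ENSMUSG00000030344, chromosome 6), which anchors protein kinase A in the fibrous sheath, stood at 30023, 2559.7 and 10311 normalised counts in TSA, against 26895, 30847 and 25749 in Control. The difference without TSA1 was -2.43 (SE 0.42, limma adjusted p = 0.00616). Sun5, needed to join head and tail, stood at 2042, 303 and 830.0 in TSA, against 1850.3, 2441 and 2615 in Control. In both genes TSA2 was the lowest library and TSA1 lay within the Control range. Tekt5, Catsper3 and Catsper4, named after their values were seen, also fell without TSA1, by 2.16, 2.07 and 2.67 on the log2 scale. Catsper1, a subunit of the calcium channel of the sperm tail, stood at 1265, 655 and 708 in TSA, against 1350.0, 1500.5 and 3230.3 in Control, so that its groups did not overlap, but it did not pass (limma adjusted p = 0.156 without TSA1). Odf1, of the outer dense fibres, stood at 25231, 21600.3 and 30805 in TSA, against 26289, 27284 and 36806 in Control, with overlapping groups.

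Among the 23 genes of the exchange of histones for protamines, 3 fell without TSA1, beside 5.54% of all genes. Lower than Control3 by at least 1 were 7 of the 23, beside 13.3% of all genes. The median was -0.63 within the mitochondria-rich set and 0.01 within the histone-rich set, and it was -0.90 for TSA2 alone and -0.42 for TSA3 alone. Tnp2 (ENSMUSG00000043050, chromosome 16), the gene of transition protein 2, stood at 68096, 16079 and 26813 normalised counts in TSA, against 70196, 86746 and 68231 in Control. All 3 TSA libraries lay below the Control libraries, TSA1 by little. The difference without TSA1 was -1.85 (SE 0.34, limma adjusted p = 0.00817). Cdyl, a chromodomain protein of spermatids with a part in histone acylation and the exchange, stood at 8870.4, 1147 and 3103 in TSA, against 8727, 9407 and 12868 in Control. Its difference without TSA1 was -2.43 (SE 0.37, limma adjusted p = 0.00490). Camk4, the kinase gene of the third call, was named after its values were seen and differed by -1.14 without TSA1.

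The protamine genes followed the library sets more than the groups. Prm1 stood at 153835, 26506 and 34925 normalised counts in TSA, against 128626, 180451 and 70255 in Control, and was lower in TSA2 and TSA3 than in Control3, the lowest Control library. It did not pass without TSA1 (limma adjusted p = 0.0646). Prm2 stood at 240037, 74940.4 and 90829 in TSA, against 194680.3, 243561 and 113047 in Control. Tnp1, at 249488, 19232 and 49245 in TSA and 243872, 249695 and 73727 in Control, showed the same order and did not pass either (limma adjusted p = 0.150). Hist1h1t, the linker histone of spermatocytes, followed the library set, at 20959.8, 94.2 and 101 in TSA and 15472, 20902 and 83.2 in Control. Chd5, a chromatin remodeller of spermatids, stood at 5145, 1694 and 3740.2 in TSA, against 7895, 4603 and 15855 in Control, where Control3 was far above the other Control libraries and TSA2 and TSA3 were below all of them.

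Of 16 regulators of the spermatid program, 3 fell without TSA1, beside 5.54% of all genes. TSA2 and TSA3 lay below the other 7 mitochondria-rich libraries in 8 of the 16, beside 12.1% of all genes. The median was -0.46 within the mitochondria-rich set, -0.25 for TSA2 alone and -0.58 for TSA3 alone. The ciliary transcription factor gene Rfx3 stood at 1086, 333 and 527 normalised counts in TSA, against 1148, 1398 and 844 in Control. The orphan nuclear receptor gene Nr6a1, expressed in round spermatids, stood at 4478, 1737 and 1716 in TSA, against 4148, 4075 and 4982 in Control. Fhl5, the testis co-activator of CREM, was named after its values were seen and stood at 10073, 337 and 2251 in TSA, against 8811, 11859 and 5057 in Control. Its difference without TSA1 was -3.21 (SE 0.69, limma adjusted p = 0.0174). In all 3 genes TSA1 lay within the Control range and TSA2 and TSA3 below it. Rfx2, Tbpl1, Tcfl5 and Tdrd6 differed from Control3 by no more than 0.12 in either direction in the mean of TSA2 and TSA3, and are named after their values were seen. Of 14 germ cell glycolysis genes 1 fell without TSA1, the monocarboxylate transporter gene Slc16a7, at 18939, 3176 and 5020.3 in TSA and 16642, 21597 and 13129 in Control. A count of 1 in 14 is near the share of 5.54% over all genes.

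The lists of meiosis held few calls, and those with 1 call lay near the share of 5.54% over all genes. In the list of chromosome axis and synapsis, 0 of 15 members fell without TSA1. Lower than Control3 by at least 1 were 4 of the 15, beside 13.3% of all genes. The list had a median of -0.44 within the mitochondria-rich set and 0.15 within the histone-rich set. For TSA2 alone the first of these was -0.17 and for TSA3 alone -0.75. Sycp1, the transverse filament of the synaptonemal complex, stood at 14887, 18327 and 6815 normalised counts in TSA, against 11385, 14994 and 38594 in Control. Control3 was the highest library and TSA3 the lowest, and the other 4 lay between. The 14 cohesin genes had a median of -0.47 within the mitochondria-rich set, which was -0.67 for TSA3 alone and 0.05 for TSA2 alone, and 0 fell. Their mean was 11.29 in TSA2, 10.37 in TSA3 and 11.30 in Control3, within the 10.22 to 11.83 of replicates 2 and 3 of the other treatments. Rec8, the meiotic kleisin, stood at 1321, 682 and 1525 in TSA, against 1588, 1164 and 1857 in Control. Of 24 genes of break formation and strand exchange 1 fell without TSA1, Brca2, a loader of strand exchange recombinases, at 2220.2, 1334 and 1055 in TSA and 2426, 2600.2 and 2385 in Control. Its groups did not overlap, and the difference without TSA1 was -1.06 (SE 0.26, limma adjusted p = 0.0316). Spo11, which cuts the meiotic breaks, stood at 2951, 2658 and 2516 in TSA and 2510.1, 3139 and 2617 in Control. No member fell among 10 genes of telomere attachment, 15 of crossover formation, 14 of meiotic entry, 18 of damage signalling and 22 of the piRNA pathway, and 1 of 20 in the list of spermatocytes, Spag6 (-1.32 without TSA1). The median differences of these 6 lists lay between -0.13 and 0.17 within the mitochondria-rich set, and after quantile normalisation that of the spermatocyte list turned to 0.24 and that of break formation, -0.08 before, to 0.10, while the piRNA list stood at 0.37 and damage signalling at 0.18.

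Spermatogonial genes were higher in TSA in 22 of 23 members over all 6 libraries, with a median of 0.41, beside 50.5% of all genes above 0, but none passed the test with or without TSA1. Within the sets the medians were 0.11 for TSA1 and 0.34 for TSA2 and TSA3 (0.19 for TSA2 alone and 0.49 for TSA3 alone). Kit, the receptor of differentiating spermatogonia, stood at 728, 1208 and 1713 normalised counts in TSA, against 682, 631 and 999 in Control. Lin28a, an RNA-binding protein of progenitors, stood at 152, 252 and 287 in TSA, against 85.2, 82.4 and 211 in Control. In both genes the mitochondria-rich libraries were the higher ones in either group, and TSA holds 2 of them where Control holds 1.

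The genes of the enzymes that remove histone acetylation gave no call. None of the 11 deacetylase genes of classes I, II and IV passed with or without TSA1, and their median was 0.19 over all libraries, 0.06 within the histone-rich and 0.12 within the mitochondria-rich set. Hdac1 stood at 4099.7, 7349 and 8918 normalised counts in TSA, against 4133, 3739 and 8135 in Control, in the order of the library sets. Hdac6, the cytoplasmic tubulin deacetylase, stood at 1792, 2128 and 3149.5 in TSA, against 2018, 1509 and 1715 in Control. Hdac9 stood at 149, 111 and 78.2 in TSA, against 167, 178 and 174 in Control, and was the only deacetylase of the 11 whose groups did not overlap (-0.66, SE 0.33, limma adjusted p = 0.886). Over all genes 2.18% had all 3 TSA libraries below all 3 Control libraries. Hdac11, named after its values were seen, was the only 1 of the 11 to differ from Control3 by at least 1 (-1.05 in TSA2 and TSA3), at 2119, 272 and 404 in TSA and 1607, 2437 and 686 in Control. A count of 1 in 11 is under the 13.3% of all genes that were lower than Control3 by at least 1. The 7 sirtuins had medians of 0.15 and 0.18 in the 2 sets, and the 31 members of deacetylase complexes -0.07 and -0.04.

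Of 20 histone acetyltransferase genes 1 fell without TSA1, Cdyl, as given above, near the share of 5.54% over all genes. The list median was 0.10 over all libraries. Kat14, of the ATAC complex, stood at 378, 539.8 and 671 normalised counts in TSA, against 337, 225 and 394 in Control, and did not pass (limma adjusted p = 0.869). Of 32 readers of acetyl-lysine 2 fell without TSA1, also near the share of 5.54% over all genes. Trim66 stood at 627, 196 and 399 in TSA, against 700.5, 684 and 884 in Control, with groups that did not overlap. Atad2, a bromodomain ATPase, stood at 2996, 994 and 918 in TSA, against 2760.0, 2989 and 3087 in Control, with TSA1 in the Control range. Brdt, the reader of acetylated histones in spermatids, stood at 8188, 9661 and 5306 in TSA, against 8309.7, 8206 and 10713 in Control, with overlapping groups. The lists of histone methyltransferases (35 genes), demethylases (21) and chaperones (22) held no gene that fell or rose without TSA1. Suv39h1, a methyltransferase of histone H3 lysine 9, was higher in every TSA library, at 399, 447 and 618 in TSA and 303, 294 and 355 in Control, and its paralogue Suv39h2 stood at 1665, 1079 and 796 in TSA and 1571, 1774 and 2091 in Control. Neither passed (limma adjusted p = 0.878 and 0.871).

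Tet2, an enzyme that oxidises 5-methylcytosine, was lower in TSA in both library sets. It stood at 134, 175 and 60.7 normalised counts in TSA, against 316, 288 and 271 in Control. All 3 TSA libraries lay below the 3 Control libraries, which were close to each other, and the log2 difference was -1.17 for TSA1 against Control1 and Control2 and -1.39 for TSA2 and TSA3 against Control3. The second was -0.63 for TSA2 alone and -2.14 for TSA3 alone. The difference over all 6 libraries was -1.36 (SE 0.47) and did not pass (limma adjusted p = 0.848). Among the other mitochondria-rich libraries Tet2 ran from 61.7 to 284 normalised counts, a range that holds TSA2, while TSA3 lay just below it. Mbd4, a glycosylase of mismatches at methylated sites, stood at 469, 242 and 181 in TSA, against 708, 643 and 336 in Control, and Dnmt1, the maintenance methyltransferase, at 1484, 2137 and 2574 in TSA and 1723, 1137 and 1593 in Control.

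Few genes lay past the size limit in the same direction in both sets. Both differences were at least 1 in 25 genes (0.140%) and at most -1 in 115 (0.643%). By the fixed rule, the 8 higher genes with a mean of at least 50 and the largest smaller difference were Ccl21b, Psd4, Ptpro, Ampd2, Setd4, Tsku, Stx1a and Stard5. Stx1a, a syntaxin gene of vesicle fusion, stood at 138, 114 and 129.7 normalised counts in TSA, against 46.4, 106 and 68.6 in Control. Ampd2, an AMP deaminase gene, stood at 261, 163 and 286 in TSA, against 133, 145 and 118 in Control, and the secreted regulator gene Tsku at 198, 134 and 239 in TSA, against 82.3, 90.6 and 100.1 in Control. The groups did not overlap in these 3 genes. In Psd4 and Setd4 they did. The 8 lower genes were Asdurf, Cux2, Mmp12, Car3, Palm2, Zfp534, Tet2 and Gabra4. The homeobox gene Cux2 stood at 59.4, 14.7 and 37.4 in TSA, against 63.1, 401 and 75.1 in Control, where Control2 stood far above every other library. The zinc finger gene Zfp534 stood at 37.8, 21.9 and 7.57 in TSA, against 73.5, 105 and 60.1 in Control, with no overlap. Asdurf was at or near 0 in 4 libraries, at 0, 693 and 3.94 in TSA and 7.02, 0 and 538 in Control, and its sign over all 6 libraries turned with the library left out. None of these 16 genes passed over all 6 libraries (limma adjusted p between 0.848 and 0.995).

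**Figure D4:**
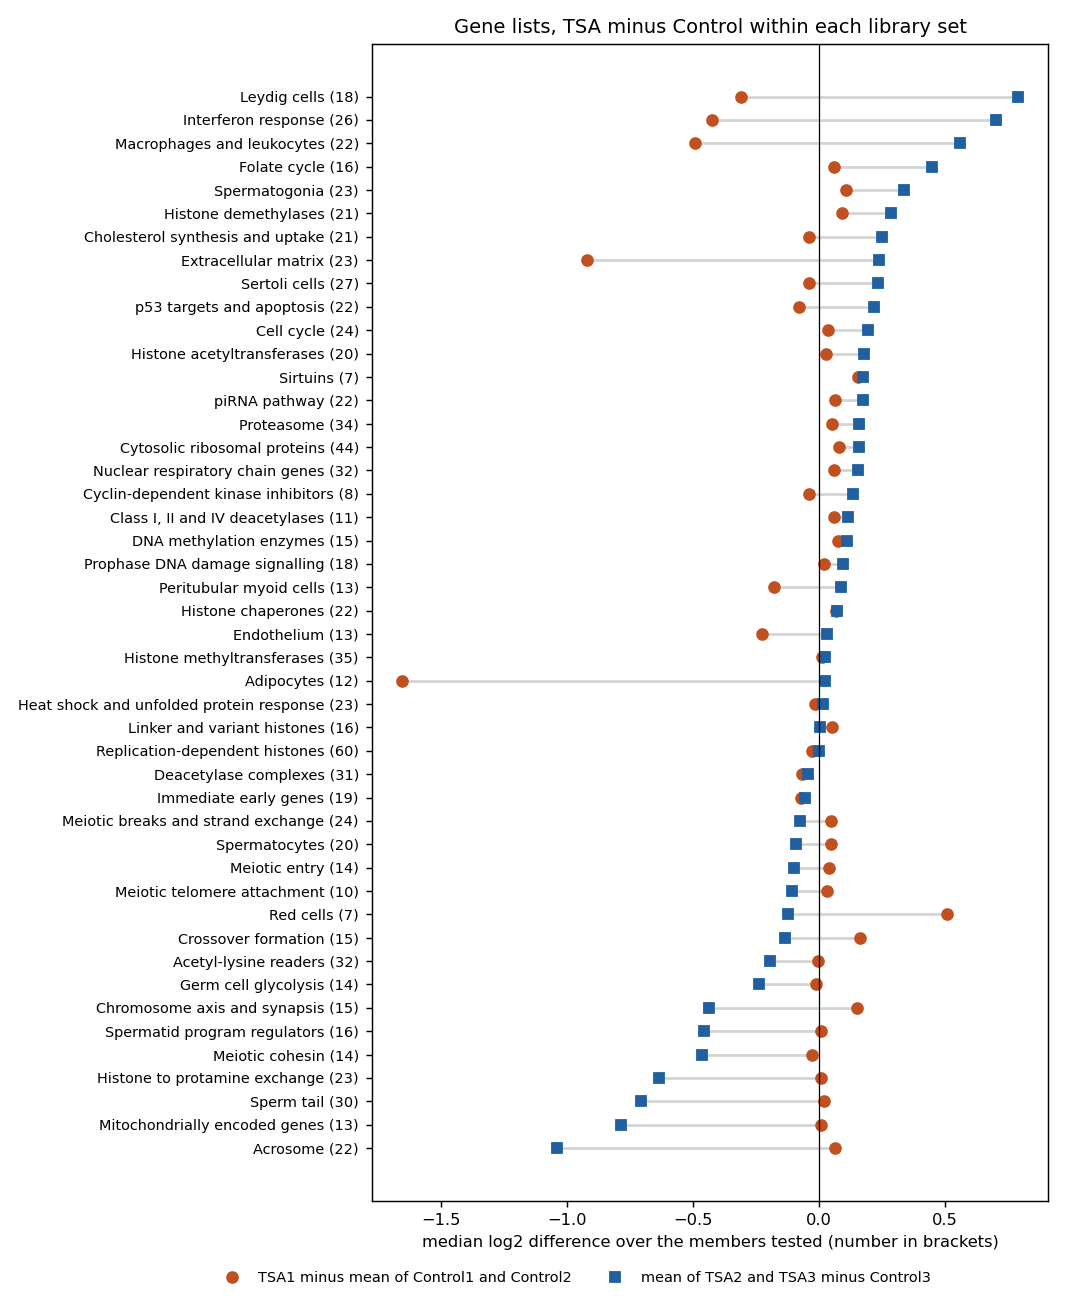
Median difference of TSA from Control in log2(normalised count + 1) over the members of each gene list with at least 7 members tested. Circles are TSA1 minus the mean of Control1 and Control2, and squares are the mean of TSA2 and TSA3 minus Control3. Squares of the spermatid lists and of the mitochondrially encoded genes lie at the low end, and those of the Leydig cell, interferon and leukocyte lists at the high end. Most circles lie near 0. Those of the adipocyte (-1.65) and extracellular matrix (-0.92) lists lie farthest below it. The leukocyte (-0.49), interferon (-0.42) and Leydig cell (-0.31) circles also lie below 0, and the red cell circle (0.51) above it.

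The Leydig cell, interferon and leukocyte lists lay higher than Control in TSA2 and TSA3 and lower in TSA1, a contrast of the sets that was not tested for lists. Of 18 Leydig cell genes, 16 were higher in TSA2 and TSA3 than in Control3 (median 0.79, beside 50.6% of all genes above 0), and 1 of 18 was higher in TSA1 than in Control1 and Control2 (median -0.31). The list mean was 10.83 in TSA2, 11.12 in TSA3 and 10.30 in Control3. Most replicates 2 and 3 of the other treatments also lay above Control3. The mean was 10.64 and 10.78 in HMS-I1, 10.77 and 11.08 in AA and 10.68 in MTX replicate 3. Only MTX replicate 2 lay below Control3. TSA2 thus lay within the range of these libraries, and TSA3 just above it. Cyp17a1, the steroid 17-hydroxylase, stood at 8288, 17637 and 22069.7 normalised counts in TSA, against 9259.8, 11808 and 9963 in Control. Hsd3b1, another enzyme of steroid synthesis, stood at 3131, 8873 and 8879 in TSA, against 2864, 3992 and 4935 in Control. In both genes TSA2 and TSA3 exceeded all Control libraries and TSA1 did not. Star, the cholesterol transporter of mitochondria, stood at 5189, 3777 and 3015 in TSA, against 3774, 5679 and 1624 in Control, and Insl3, a peptide hormone, at 3206, 9306 and 6755 in TSA, against 4591, 4659.5 and 9229 in Control. Their groups overlapped.

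Of 26 interferon response genes, 24 were higher in TSA2 and TSA3 than in Control3, with a median of 0.70 (1.00 for TSA2 alone and 0.29 for TSA3 alone). By at least 1 there were 10 of the 26, beside 2.01% of all genes. In TSA1 8 were lower by at least 1, beside 4.24% of all genes, and the median was -0.42. Irf9, a subunit of the interferon transcription factor, stood at 138, 278 and 211 normalised counts in TSA, against 120.4, 114 and 142 in Control, and did not pass (limma adjusted p = 0.886). Isg15, an inducible ubiquitin-like protein, stood at 18.8, 35.2 and 47.2 in TSA, against 21.2, 49.8 and 12.8 in Control. The list mean was 5.85, 7.56 and 6.75 in TSA, against 6.35, 6.53 and 6.41 in Control, and ran from 6.31 to 7.86 over replicates 2 and 3 of the other treatments. The 22 macrophage and leukocyte genes had medians of -0.49 for TSA1 and 0.56 for TSA2 and TSA3 (1.04 for TSA2 alone and 0.22 for TSA3 alone), with the macrophage receptor gene Adgre1 at 188, 395 and 287 in TSA and 171, 254 and 185 in Control. The mean of this list was 9.46 in TSA2 and 8.72 in TSA3, within the 8.25 to 9.66 of replicates 2 and 3 of the other treatments. No gene of the 3 lists passed with or without TSA1.

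Sertoli cell genes were higher in TSA2 and TSA3 than in Control3 in 21 of 27 members (median 0.23), beside 50.6% of all genes, and TSA1 lay at a median of -0.04. Their mean log2 level was 9.29, 10.21 and 10.32 in TSA, against 9.44 and 9.43 in Control1 and Control2, and Control3 lay between TSA1 and TSA2. It ran from 9.73 to 10.20 over replicates 2 and 3 of the other treatments, so TSA2 lay only just above that range. Sox9, which sets Sertoli cell identity, stood at 229.6, 1062 and 1109 normalised counts in TSA, against 231, 207 and 965 in Control, in the order of the library sets. Of 13 peritubular myoid cell genes 11 were higher in TSA2 and TSA3 than in Control3 (median 0.09), and of 13 endothelial genes 7 were (median 0.03). The endothelial count is near the 50.6% of all genes. In the means of both lists TSA2 and TSA3 lay within the range of replicates 2 and 3 of the other treatments. The higher Leydig and Sertoli cell values and the lower spermatid values of TSA2 and TSA3 stand in the same 2 libraries, and the part of one in the other was not tested.

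TSA1 was low in genes of connective and fat tissue, and so was replicate 1 of HMS-I1, also histone-rich. The mean log2 level of the extracellular matrix list was 8.93 in TSA1 and 8.98 in HMS-I1 replicate 1. It was 9.99 and 10.1 in replicate 1 of MTX and AA. The adipocyte list stood at 4.91 in TSA1, and at 4.85, 6.56 and 6.49 in replicate 1 of HMS-I1, MTX and AA. Of 23 extracellular matrix genes 0 were higher in TSA1 than in Control1 and Control2 (51.1% of all genes were). Lower by at least 1 were 11 of the 23, beside 4.24% of all genes (list median -0.92). The collagen gene Col1a1 stood at 691, 3324 and 4303 normalised counts in TSA, against 4567, 1319 and 3208 in Control, where TSA1 was the lowest and Control1 the highest library. Without Control1 the median of the list was -0.62. Of 12 adipocyte genes 9 were lower in TSA1 by at least 1, beside 4.24% of all genes (median -1.65, -0.72 without Control1 and -3.21 without Control2). The fat cell binding protein gene Fabp4 stood at 22.6, 25.1 and 12.6 in TSA, against 1895, 173 and 26.9 in Control, and Car3, a carbonic anhydrase of fat and muscle, at 14.7, 78.3 and 44.8 in TSA, against 1769, 208 and 156 in Control. Control1 was far above the other 5 of these libraries in both genes. Adipoq, the adipokine gene, stood at 596, 18.7 and 48.1 in TSA, against 1013, 626 and 184 in Control, and fell without TSA1 (limma adjusted p = 0.0118), although its values went with the library sets. The part of fat tissue in these values was not tested.

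The remaining lists held few calls, near or under the share of 5.54% over all genes. Among 19 immediate early genes Klf4, a zinc finger factor also expressed in spermatids, fell without TSA1, at 3095, 953 and 998 normalised counts in TSA and 3359, 3143 and 2509.6 in Control. Among 34 proteasome genes Psme3, an activator subunit of the nuclear proteasome, did so, at 5495, 1700.2 and 2499.8 in TSA and 4737, 5882 and 4805 in Control. In both genes TSA1 lay within the Control range and TSA2 and TSA3 below it. Of 60 replication-dependent histone genes 2 fell without TSA1, and the list medians were -0.03 and 0.00 in the histone-rich and mitochondria-rich sets. Hist1h4a stood at 1892, 72.4 and 194 in TSA and 1664, 2000.5 and 818 in Control, and the histone-rich libraries were the higher ones in both groups. No gene was called without TSA1 among 24 genes of the cell cycle, 22 targets of p53, 23 of the heat shock and unfolded protein responses, 32 of the nuclear respiratory chain, 44 cytosolic ribosomal proteins, 21 of cholesterol synthesis and 16 of the folate cycle. In the mean of TSA2 and TSA3 all 13 mitochondrially encoded genes were lower than in Control3 (median -0.78, beside 50.6% of all genes above 0). The median was -1.66 for TSA3 alone and 0.15 for TSA2 alone. The list mean was 16.9 in TSA2, 15.3 in TSA3 and 16.8 in Control3. All 3 lay within the 14.8 to 17.8 of replicates 2 and 3 of the other treatments.

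Both sex chromosomes had a larger share of genes lower in TSA2 and TSA3 than any autosome, a grouping chosen after values were seen and given without a test. Lower than Control3 by at least 1 were 231 of 879 genes of chromosome X (26.3%), 217 of 347 of chromosome Y (62.5%) and between 7.53% and 16.2% of the genes of each autosome. With a mean of at least 50 the shares were 26.5% for X and 72.8% for Y. In TSA1 the corresponding shares were 5.69% for X and 13.5% for Y, where another 48 genes of Y were higher by at least 1. In the fit without TSA1, 116 of the 879 genes of X and 50 of the 347 of Y fell, beside 5.54% of all genes. Many of these loci are multicopy families known to be expressed in spermatids, and 331 of the 347 genes of Y carry predicted names, so reads of near-identical copies may be split among them. Slxl1, an X-linked gene of spermatids named after its values were seen, stood at 1820.4, 594 and 381 normalised counts in TSA, against 1783, 2069 and 2055 in Control (limma adjusted p = 0.0121 without TSA1). Among well expressed genes, with a mean from 1000 to 5000, 11.7% were lower than Control3 by at least 1 in TSA2 and TSA3, and 0.194% were lower in TSA1.

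**Figure D5:**
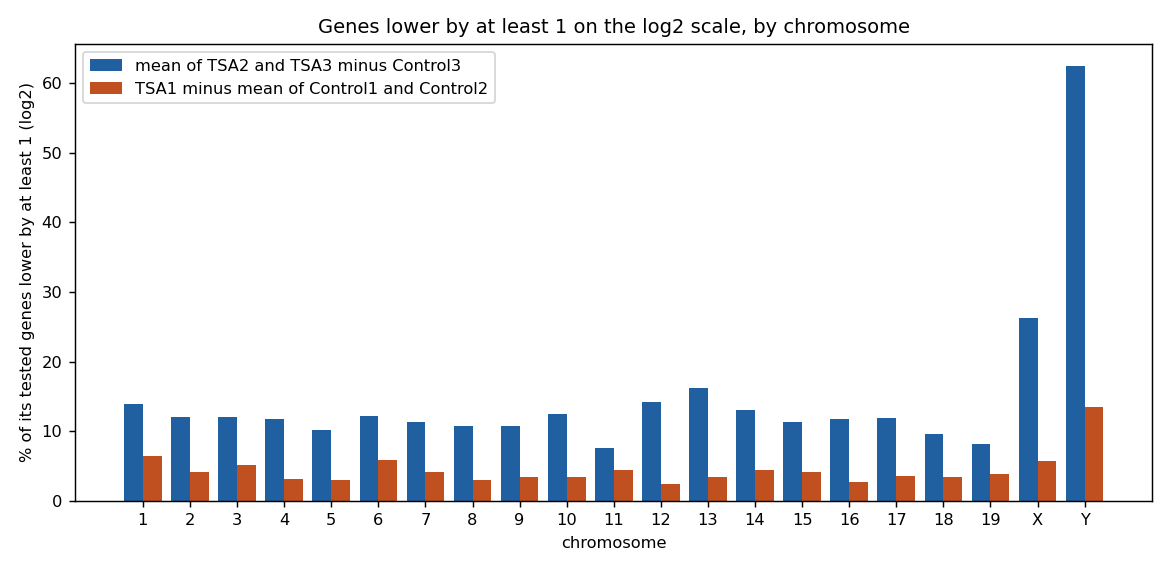
Share of the tested genes of each chromosome that were lower in TSA by at least 1 on the log2 scale, in percent from 0. Blue bars are the mean of TSA2 and TSA3 minus Control3, and orange bars TSA1 minus the mean of Control1 and Control2. X (26.3%) and Y (62.5%) stand above all autosomes for TSA2 and TSA3.

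Within the sets a test with the 10 combinations of group and library set as means had 5 residual degrees of freedom. TSA1 and Control3 are single libraries in it, so the spread comes from the combinations with 2 libraries, 4 of them mitochondria-rich and 1 the histone-rich Control, and the single libraries are assumed to vary like those. For TSA1 limma called 3 genes (0.0168%). Gm20803 was higher, at 2034, 599 and 744 normalised counts in TSA and 0, 0 and 1069 in Control (adjusted p = 0.000436). Btbd35f15 was lower, at 0, 31.8 and 24.2 in TSA and 308, 115 and 51.1 in Control (adjusted p = 0.0422), and so was Gm20772, at 0, 94.7 and 91.5 in TSA and 246, 413 and 217 in Control (adjusted p = 0.000436). For TSA2 and TSA3 it called 2 (0.0112%), Ccl21b higher (adjusted p = 0.0242) and Gm20831 lower, the second at 399.9, 0 and 0 in TSA and 127, 194 and 108 in Control (adjusted p = 0.0155). Unadjusted p-values below 0.05 were reached by 434 genes for TSA1, 311 of them lower, and by 1623 for TSA2 and TSA3, 1521 of them lower. All but Ccl21b among these 5 genes lie on a sex chromosome, and each of the 5 was listed at 0 in some of the libraries. An exact 0 in such a table can be a failed assignment of reads among near-identical copies.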

How the data were processed

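Gene-level normalised counts of 15 whole-testis libraries were used, from C57/BL6 mice in 5 groups of 3. Per the labels' protocols, total RNA was sequenced on a NovaSeq6000. The authors deposited the values as normalised counts (signal, not raw counts), and the submitters' processing notes name FastQC 0.11.9, Salmon 0.12.0, DESeq2 1.34.0 and the build GRCm39. Between 6.23% and 12.0% of low values per library were whole multiples of a common step (tolerance 0.02), so whole reads were not recovered, the depth is unknown and no count test was run. Gene symbols came from GENCODE M21 for 35825 of 36118 identifiers.

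From these values log2(value + 1) was computed here for the 17896 genes that averaged 10 or more over all libraries, and a fold change is on that scale, which understates the change of low genes. limma 3.58.1 in R 4.3.3 fitted the 5 group means with a trended variance (10 residual degrees of freedom) and Benjamini-Hochberg adjustment over all tested genes. The scripts were tested on simulated data. With 3 libraries against 3, an exact permutation test of a single value cannot go below p = 0.1. Library sets were assigned from the mean of the replication-dependent histone genes, between 7.79 and 8.82 in 6 libraries and between 2.95 and 3.86 in 9. A difference of 1 on the log2 scale was the size limit within sets.

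Named were the 6 higher and 6 lower genes of smallest p and the 8 higher and 8 lower of largest smaller within-set difference (mean of at least 50, proper symbol). Per list, up to 2 of smallest p, up to 2 of largest smaller within-set difference and the defining members were added. The comparison and the gene lists were chosen with earlier results of these data known. Alternatives were filters, pseudocounts, scalings, library set, replicate number and leaving out libraries. Promoters were those of RefSeq on GRCm38.p6, whose coordinates are not those of the build of the deposited values.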

Additional observations from a re-analysis of the deposited data

Results flagged for a closer look

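For 3 of 17896 genes (0.0168%), all predicted genes of chromosome Y, limma called the difference between the 2 within-set differences, TSA1 against Control1 and Control2 and the mean of TSA2 and TSA3 against Control3. TSA1 and Control3 are single libraries there, assumed to vary like the combinations of group and set with 2 libraries, most of them of other treatments, so the calls compare these libraries and not the responses of replicated groups. The same test gave 1164 genes with an unadjusted p below 0.05. For Gm20803 the difference was 11.7 on the log2 scale, with 2034, 599 and 744 normalised counts in TSA, against 0, 0 and 1069 in Control. For Gm20831 it was 8.11, with 399.9, 0 and 0 in TSA, against 127, 194 and 108 in Control. For Gm20772 it was -7.11, with 0, 94.7 and 91.5 in TSA, against 246, 413 and 217 in Control. A positive value means that TSA1 stood higher against Control1 and Control2 than TSA2 and TSA3 did against Control3. Each rests on libraries listed at exactly 0, against which no fold is defined, so its size depends on the pseudocount. Similar predicted genes lie on the same chromosome, so the assignment of reads among them is uncertain, and its part in the differences was not tested.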

How the results depend on the processing

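The count of 0 genes called over all 6 libraries held with both filters, both other pseudocounts, both scalings, the library set as a term and the replicate block, and it was 1 when only TSA and Control libraries were fitted (Gm20908) or Control1 was left out. It ran from 0 to 1009 with 1 library left out, where 992, 1009, 889 and 701 belong to the fits without TSA1, the last 3 of them (library set, median centring, quantile normalisation) chosen after seeing the data. Whether the replicate numbers pair the samples could not be told. Same-numbered TSA and Control libraries correlated at 0.41, -0.57 and 0.28 in their deviations, but these values go with the library sets. Control2 was histone-rich and TSA2 mitochondria-rich, while replicate 1 was histone-rich and replicate 3 mitochondria-rich in all 5 groups. With the replicate block 0 genes were called. With no filter, 605 genes had all TSA libraries below Control, 1811 were higher and 2095 lower in TSA1, 823 and 3673 in TSA2 and TSA3, and 115 and 333 in both sets; the within-set tests called 387, 465 and, for their difference, 655 genes. With a mean of at least 50 the counts were 103 and 315 for TSA1, 157 higher for TSA2 and TSA3, 2 and 43 in both sets, and 1 call for TSA2 and TSA3. A pseudocount of 5 gave 269 higher for TSA1, 235 higher for TSA2 and TSA3, 10 and 64 in both, 0 calls for TSA2 and TSA3 and 1 for the difference, and a pseudocount of 0.5 gave 9 calls for TSA1. Quantile normalisation gave 719 genes with all TSA libraries above Control, 807 higher in TSA2 and TSA3, 71 and 62 in both, and list medians of 0.18 for spermatocytes and 0.13 for acetyltransferases; of the genes called lower without TSA1 it kept 699, with 8 acrosome, 4 tail, 3 exchange and 3 regulator genes. The cause of these shifts was not tested.

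With 1 library left out, the genes higher and lower ran from 489 to 492 and 794 to 908 for TSA1, from 434 to 1175 and 2389 to 2920 for TSA2 and TSA3 (1175 without TSA2), and from 24 to 37 and 98 to 148 in both sets. Median list differences ran from -0.24 to 0.093 for acetyl-lysine readers, 0.070 to 0.35 for cholesterol synthesis and uptake, 0.075 to 0.39 for deacetylases, 0.15 to 0.46 for folate cycle, 0.0071 to 0.15 for acetyltransferases, -0.035 to 0.34 for histone methyltransferases, -0.091 to 0.52 for immediate early genes, -0.058 to 0.39 for meiotic entry, -0.033 to 0.39 for p53 targets and apoptosis, 0.035 to 0.19 for piRNA pathway, 0.0086 to 0.15 for prophase DNA damage signalling (0.11 without TSA2) and -0.094 to 0.041 for spermatocytes. With the replicate block and the library set the medians were -0.22 for meiotic entry, -0.0073 for acetyltransferases, -0.35 for acetyl-lysine readers, -0.062 for methyltransferases, 0.031 for DNA methylation enzymes, -0.016 for kinase inhibitors and 0.35 for ribosomal proteins. Asdurf changed sign, at 0.30 after quantile normalisation, and ran from -2.87 to 2.41 with 1 library left out (1.85 without TSA1, 0.69 without TSA3, 2.41 without Control3), and from -6.77 to 0.36 within the mitochondria-rich set. The mitochondrial gene mt-Co2 ran from -3.14 to 0.99 for TSA1 with a Control library left out.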
